A study of Mus musculus with 10 samples.

Results

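The vascular endothelial growth factor (VEGF) family was described in mouse interscapular brown adipose tissue (iBAT) through 9 genes chosen by name. They were chosen with earlier results of these data known. They were 4 ligands (*Vegfa*, *Vegfb*, *Vegfc* and *Pgf*), 3 receptor tyrosine kinases (*Kdr*, *Flt1* and *Flt4*) and 2 neuropilin co-receptors (*Nrp1* and *Nrp2*), of 27267 listed genes. All 9 reached the mean of 10 normalized counts needed for testing, as did 13714 genes in all.

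VEGF ligands are secreted proteins that bind receptor tyrosine kinases on endothelial cells. VEGF-A acting on VEGFR2, which *Kdr* encodes, drives endothelial growth, migration and permeability, whereas VEGFR1, encoded by *Flt1*, binds VEGF-A, VEGF-B and placental growth factor and in its soluble form holds ligand back. VEGF-C acts on VEGFR3, encoded by *Flt4*, and is known for lymphatic growth. Brown fat is a densely vascularised tissue, and its adipocytes are a known source of VEGF-A.

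The study asked how loss of *Mgp*, which encodes matrix Gla protein, an extracellular inhibitor of bone morphogenetic proteins, affects brown fat. RNA was sequenced from 5 wild-type (WT) mice and 5 mice labelled *Mgp*-KO, all C57BL/6 males of 4 weeks on standard chow. The knockout was a global deletion, so that no cell type of these mice was meant to carry the gene, and whole tissue was sequenced, in which fewer cells of a type and less RNA per cell cannot be told apart. Values are normalized counts, that is reads on a gene divided by a size factor of the library, and the p-values measure the spread between these mice, each of which gave 1 library.

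Some libraries went against their labels or stood apart. *Mgp* had 485 to 805 reads in WT, 0, 1 and 1 in *Mgp*-KO 1, 2 and 3, but 309 and 282 in *Mgp*-KO 4 and 5, so that these 5 are referred to as the KO-labelled libraries, or by name as *Mgp*-KO 1 to 5. In normalized counts, which allow for depth, *Mgp* was 466 to 1146 in WT, 500 in *Mgp*-KO 4 and 331 in *Mgp*-KO 5. WT 2, labelled male, had 5094 normalized counts of *Xist* against 0.754 to 44.0 in the other libraries, and genotype calls that were lost when it was left out are named below, with settings without it that were chosen after seeing the data. Replicates 1 to 3 of both groups held 19616366 to 22252260 reads with 0.771 to 1.72% in mitochondrial ribosomal RNA, and replicates 4 and 5 held 9253793 to 13281873 reads with 6.50 to 16.7%. The labels give no reason for these sets, and each comparison was therefore also made within them. The sum of 14 brown adipocyte markers was 155645 to 422524 normalized counts over the 10 libraries, and none of them was at 0 in any library. A sum of 10 skeletal muscle markers reached 33717 in *Mgp*-KO 2 and 34072 in *Mgp*-KO 5 against 40.2 to 6074 elsewhere. *Mgp*-KO 4 held the highest sum of 20 blood endothelial markers, 60626 against 20218 to 34806, and of 8 red blood cell and platelet markers, 89965 against 2627 to 23542.

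Set side by side per kilobase of exons in WT, *Vegfa* and *Vegfb* were the most abundant members. *Vegfa* had 1578 ± 350 normalized counts per kilobase (SD, n = 5) and *Vegfb* 1467 ± 298, and their ranges overlapped. *Kdr* followed at 509 ± 89.1, *Nrp1* at 338 ± 40.7, *Flt1* at 260 ± 114 and *Nrp2* at 216 ± 38.7, with each range overlapping that of the next gene. *Flt4* at 26.6 ± 6.54 and *Vegfc* at 19.7 ± 3.02 overlapped each other and lay below these, and *Pgf* was lowest at 4.21 ± 2.29. The ranges of neighbouring genes were apart only between *Vegfb* and *Kdr*, between *Nrp2* and *Flt4*, and between *Vegfc* and *Pgf*. The pair of genes of the lymphatic axis was thus far below the blood vascular receptors per length, and the sum of 7 listed lymphatic markers was also low, 117 to 410 normalized counts per library.

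**Figure D1:**
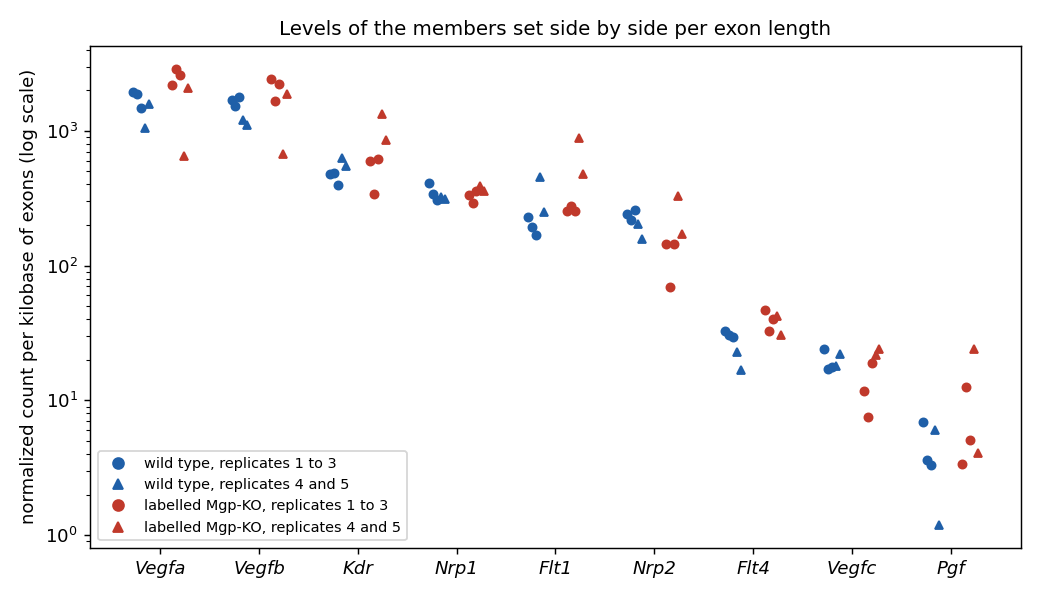
Normalized counts per kilobase of exons (log scale) of the 9 members, ordered by their WT mean, with 1 point per library for WT and for the KO-labelled libraries. *Vegfa* and *Vegfb* lie highest in WT, with means of 1578 and 1467, and *Pgf* lowest, with a mean of 4.21.

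*Vegfa*, the main angiogenic ligand (chr17:46016993-46032369, minus strand, GRCm38), had 8248, 8020, 6280, 4531 and 6733 normalized counts in WT 1 to 5. In the KO-labelled libraries 1 to 5 it had 9377, 12373, 11152, 2792 and 8835. The first 3 of these lay above every WT library, the fifth also did, and *Mgp*-KO 4 lay below all of them. The fitted difference between the groups was 0.27 ± 0.38 (log2 fold change ± SE, limma, adjusted p = 0.85, 95% interval -0.56 to 1.09). Without *Mgp*-KO 4 it was 0.64 (adjusted p = 0.21 by limma), without *Mgp*-KO 2 it was 0.11 (0.95), without *Mgp*-KO 3 0.14 (0.93) and without WT 4 0.13 (0.92). Without *Mgp*-KO 4 and 5, the KO-labelled libraries that held *Mgp* reads, it was 0.72 (0.14). Within replicates 1 to 3 the groups did not overlap and *Vegfa* was higher by 0.55 ± 0.16, with an adjusted p of 0.12 by limma, 0.12 by edgeR and 0.037 by DESeq2. Without WT 2 it was 0.58 by DESeq2 with an adjusted p of 0.12, so that the call rested on the tool and was lost there. The difference was no smaller, its SE rose from 0.18 to 0.22, and DESeq2 was not run here without any other library.

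The *Vegfa* promoter is shown because this ligand had the highest WT mean per kilobase and its groups were apart in replicates 1 to 3. The window is the one at the start of the annotated gene, chr17:46032328-46032627 on the minus strand, and runs from 250 bases before to 50 after the start site (RefSeq, GRCm38.p6). Capitals mark GGAA on either strand (TTCC on the strand shown), the core letters of sites bound by ETS factors, a family with endothelial members such as *Erg* and *Fli1*.

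Vegfa promoter: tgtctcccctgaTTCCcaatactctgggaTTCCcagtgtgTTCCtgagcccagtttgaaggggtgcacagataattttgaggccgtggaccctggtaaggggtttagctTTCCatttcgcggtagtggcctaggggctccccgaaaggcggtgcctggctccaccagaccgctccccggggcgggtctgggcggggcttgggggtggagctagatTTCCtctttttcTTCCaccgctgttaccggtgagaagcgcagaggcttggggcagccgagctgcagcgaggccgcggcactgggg

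These letters occurred 6 times in the window, and 3 times in a second window of the gene, chr17:46025114-46025413 on the minus strand. GGAA was present in 96.0% of 32851 such windows, with a median of 3. The core letters of the hypoxia response element, ACGTG or GCGTG on either strand, were not in the window printed, but the second window held each of them 1 time. They were in 19.6% and 32.4% of all windows, respectively.

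*Vegfb*, a ligand of VEGFR1 that is abundant in oxidative tissues (chr19:6982473-6987651, minus strand), had 2721, 2460, 2870, 1935 and 1784 normalized counts in WT 1 to 5. It had 3857, 2662, 3587, 1073 and 3032 in the KO-labelled libraries 1 to 5. The groups overlapped, again with *Mgp*-KO 4 lowest of all. The difference was 0.17 ± 0.33 (limma, adjusted p = 0.90, 95% interval -0.54 to 0.88), and 0.49 without *Mgp*-KO 4 (adjusted p = 0.31). It was 0.03 without *Mgp*-KO 1, 0.06 without *Mgp*-KO 3, 0.12 without *Mgp*-KO 5, 0.11 without WT 4 and 0.08 without WT 5 (adjusted p of 0.93 to 0.98), and 0.52 without *Mgp*-KO 4 and 5 (adjusted p = 0.23). The log2 ratio of *Vegfa* to *Vegfb* ranged from 1.13 to 1.92 in WT and from 1.28 to 2.22 in the KO-labelled libraries.

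*Vegfc*, the lymphangiogenic ligand (chr8:54077606-54187096, plus strand), had 58.7, 41.9, 43.4, 44.0 and 53.6 normalized counts in WT 1 to 5 and 28.6, 18.4, 46.0, 53.4 and 58.6 in the KO-labelled libraries. The 2 lowest values were *Mgp*-KO 1 and 2, and the others lay among the WT libraries. The difference was -0.34 ± 0.33 (limma, adjusted p = 0.78, 95% interval -1.05 to 0.38), with -0.085 without *Mgp*-KO 2 (adjusted p = 0.95) and -0.71 without *Mgp*-KO 4 and 5 (adjusted p = 0.27). *Pgf*, placental growth factor, a ligand of VEGFR1 (chr12:85166635-85177790, minus strand), had 20.0, 10.5, 9.56, 17.6 and 3.46 in WT and 9.80, 36.7, 14.8, 69.6 and 11.7 in the KO-labelled libraries. The value of WT 5 lay under the floor of 3 reads in that library, which was 5.19 normalized counts, and the groups overlapped although *Mgp*-KO 4 and 2 were the highest. Its difference was 0.95 ± 0.61 (limma, adjusted p = 0.63, 95% interval -0.37 to 2.28), with 0.54 left when *Mgp*-KO 4 was left out (adjusted p = 0.77) and 0.61 when WT 5 was (adjusted p = 0.84).

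*Kdr*, which encodes VEGFR2 (chr5:75932827-75978458, minus strand), had 4327, 4367, 3571, 5721 and 4980 normalized counts in WT 1 to 5. It had 5424, 3094, 5557, 12112 and 7688 in the KO-labelled libraries 1 to 5. *Mgp*-KO 4 and 5 lay above all WT libraries, while *Mgp*-KO 2 lay below all of them. The difference was 0.43 ± 0.32 (limma, adjusted p = 0.68, 95% interval -0.26 to 1.13), with 0.19 left without *Mgp*-KO 4 (adjusted p = 0.84) and 0.68 without *Mgp*-KO 2 (adjusted p = 0.52). Without *Mgp*-KO 4 and 5 it was -0.000742 (adjusted p = 0.999).

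*Flt1*, which encodes VEGFR1 (chr5:147561604-147726011, minus strand), had 3123, 2615, 2284, 6163 and 3352 normalized counts in WT 1 to 5. It had 3459, 3764, 3432, 11992 and 6438 in the KO-labelled libraries 1 to 5. In each set of replicates the KO-labelled libraries lay above the WT libraries, but over all 10 the groups overlapped because WT 4 was high. The difference was 0.63 ± 0.38 (limma, adjusted p = 0.60, 95% interval -0.20 to 1.46), with 0.32 left without *Mgp*-KO 4 (adjusted p = 0.74) and 0.11 without *Mgp*-KO 4 and 5 (adjusted p = 0.86).

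*Flt4*, which encodes VEGFR3 (chr11:49609263-49652739, plus strand), had 268, 252, 245, 189 and 138 normalized counts in WT 1 to 5 and 386, 272, 331, 350 and 250 in the KO-labelled libraries. Within each set every KO-labelled library was above every WT library. Over all 10 libraries only *Mgp*-KO 5 lay within the WT range. The difference was 0.56 ± 0.22, the smallest p among the members (limma, adjusted p = 0.40, unadjusted p = 0.0266, 95% interval 0.08 to 1.04), and it was 0.52 without *Mgp*-KO 4 (adjusted p = 0.39). With replicate set as a model term it was 0.56 with an adjusted p of 0.12 by limma and 0.55 with an adjusted p of 0.047 by DESeq2. Without WT 2 the latter was 0.58 with an adjusted p of 0.12, so that the call was lost. The difference was no smaller there, its SE rose from 0.19 to 0.22, and no other library was left out of that fit. *Flt4* is also carried by some blood capillaries, and among lymphatic markers the sum was 193 to 368 in WT and 117 to 410 in the KO-labelled libraries.

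The promoters of *Kdr* and *Flt1* are shown because these receptors were the 2 members called as higher in replicates 4 and 5, as described further on. They lie at chr5:75978406-75978705 and chr5:147725962-147726261, both on the minus strand (RefSeq, GRCm38.p6), with GGAA of either strand in capitals as above.

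Kdr promoter: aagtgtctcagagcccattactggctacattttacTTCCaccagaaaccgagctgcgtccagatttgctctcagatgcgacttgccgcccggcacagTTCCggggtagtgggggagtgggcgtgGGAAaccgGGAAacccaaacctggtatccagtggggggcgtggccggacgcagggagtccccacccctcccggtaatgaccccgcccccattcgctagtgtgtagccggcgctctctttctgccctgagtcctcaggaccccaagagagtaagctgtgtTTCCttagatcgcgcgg

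Flt1 promoter: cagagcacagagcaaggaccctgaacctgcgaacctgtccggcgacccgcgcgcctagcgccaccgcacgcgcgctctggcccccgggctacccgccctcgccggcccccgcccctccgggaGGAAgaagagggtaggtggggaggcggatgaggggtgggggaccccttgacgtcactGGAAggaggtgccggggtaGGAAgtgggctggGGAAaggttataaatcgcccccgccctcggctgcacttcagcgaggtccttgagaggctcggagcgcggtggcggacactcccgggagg

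The *Kdr* window held GGAA 5 times and GCGTG 2 times, and the *Flt1* window held them 4 times and 1 time, with no shared bases between the motifs. Of the other receptors, the window of *Nrp1* held GGAA 5 times and that of *Flt4* 2 times, and the median over all windows was 3.

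*Nrp1* and *Nrp2* encode neuropilins, which present VEGF to its receptors and also bind class 3 semaphorins. *Nrp1* (chr8:128358604-128503363, plus strand) was the steadiest member, with 3984, 3336, 3024, 3163 and 3035 normalized counts in WT 1 to 5 and 3289, 2866, 3515, 3793 and 3527 in the KO-labelled libraries. The groups overlapped. The difference was 0.04 ± 0.16 (limma, adjusted p = 0.96), with a 95% interval from -0.32 to 0.40, and -0.03 without *Mgp*-KO 4 and 5 (adjusted p = 0.92).

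*Nrp2* (chr1:62703285-62818695, plus strand), the neuropilin known from veins and lymphatic vessels, had 2849, 2573, 3077, 2402 and 1878 normalized counts in WT 1 to 5. It had 1727, 817, 1710, 3917 and 2015 in the KO-labelled libraries 1 to 5. *Mgp*-KO 1, 2 and 3, the libraries in which *Mgp* reads were at most 1, were the 3 lowest of all 10, and *Mgp*-KO 4 was the highest. The difference over all libraries was -0.48 ± 0.34 (limma, adjusted p = 0.67, 95% interval -1.23 to 0.26), -0.76 without *Mgp*-KO 4 (adjusted p = 0.24) and -0.20 without *Mgp*-KO 2 (adjusted p = 0.86). Without *Mgp*-KO 4 and 5 it was -0.91 (adjusted p = 0.13). Within replicates 1 to 3 it was -1.07 ± 0.28, with an interval of -1.73 to -0.42 and an adjusted p of 0.086 by limma, 0.096 by edgeR and 0.0053 by DESeq2. By DESeq2 without WT 2 it was -1.08 with an adjusted p of 0.035. *Mgp*-KO 2, the lowest, also held 33717 normalized counts of muscle markers, and their part in the result was not tested. Without that library the difference was -0.72 with an adjusted p of 0.015 by limma. Of 2 annotated genes that overlap *Nrp2*, the antisense *Gm29083* had no reads in 9 of the 10 libraries. The other, *Gm37121*, lies on the same strand and had 8 to 52 reads, or 84.2 normalized counts in *Mgp*-KO 4 and 9.80 to 34.3 elsewhere. The counting mode used by the authors, GeneCounts of STAR, leaves out reads that overlap more than 1 gene, and the strand setting is not given in the sources used here.

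The promoter of *Nrp2* is shown because it had the lowest adjusted p of the members in replicates 1 to 3. It lies at chr1:62703067-62703366 on the plus strand, with the same marking (RefSeq, GRCm38.p6).

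Nrp2 promoter: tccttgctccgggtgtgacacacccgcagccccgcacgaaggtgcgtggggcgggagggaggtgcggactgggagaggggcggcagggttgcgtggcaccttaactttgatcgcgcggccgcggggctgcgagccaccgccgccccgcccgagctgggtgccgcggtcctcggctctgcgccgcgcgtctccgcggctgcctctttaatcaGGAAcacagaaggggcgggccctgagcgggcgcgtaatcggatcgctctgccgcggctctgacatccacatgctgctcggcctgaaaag

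It held GGAA 1 time and GCGTG 2 times, fewer GGAA letters than the median window.

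**Figure D2:**
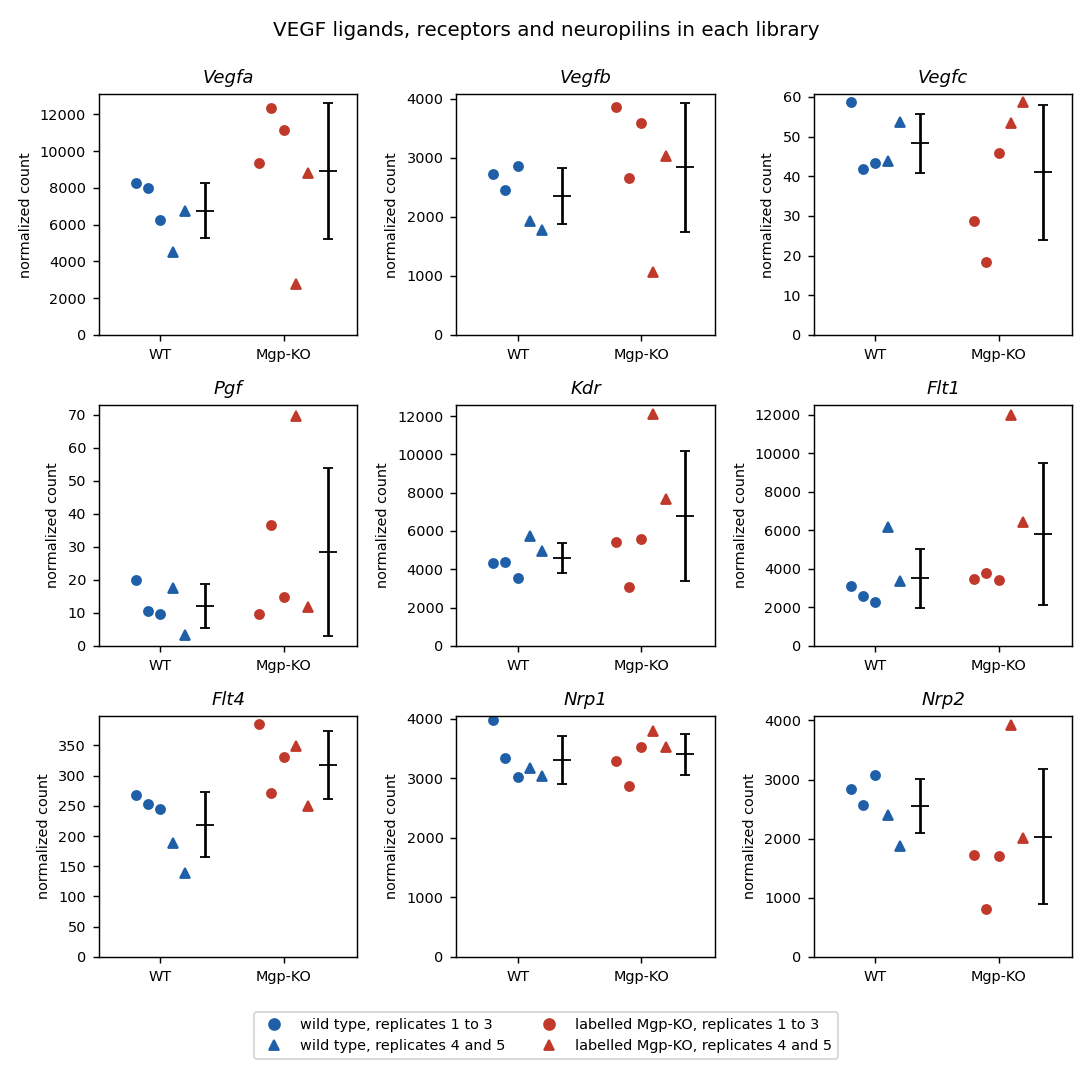
Normalized counts of the 9 members on linear axes from 0, with 1 point per library (circles for replicates 1 to 3, triangles for replicates 4 and 5) and the mean and SD of each group of 5 in black. *Vegfa* and *Vegfb* are lowest in *Mgp*-KO 4 (2792 and 1073), where *Kdr* and *Flt1* are highest (12112 and 11992).

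In the comparison of all 10 libraries, none of the 9 members passed the threshold of an adjusted p under 0.05 by limma, which called 0.0656% of all tested genes. None did by edgeR, which called 0.0219%, or by DESeq2, which called 2.26%, and 1 member, *Flt4*, had an unadjusted p under 0.05 by limma. The fitted difference was above 0 in 7 of 9 members, with a median of 0.27 beside 0.03 over all tested genes. None of the 9 had groups that did not overlap, against 3.5% of all tested genes. With the set of replicates in the model, limma called none of the members and 2.36% of all genes, and DESeq2 called *Flt4* and 7.42% of all genes, but no member and 4.56% of all genes without WT 2. No member was called without WT 2 by limma with the set term, which called 0.452% of all genes, or by DESeq2 without that term, which called 1.33%.

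Within replicates 1 to 3, where *Mgp* was at most 1 read in the KO-labelled libraries, 4 of the 9 members had groups that did not overlap: *Vegfa*, *Flt1* and *Flt4* above WT and *Nrp2* below it. The same held for 30.6% of all tested genes. Limma called none of the 9 and 3.54% of all genes, with 3 members (*Vegfa*, *Flt1* and *Nrp2*) under an unadjusted p of 0.05. DESeq2 called 2, *Vegfa* and *Nrp2*, and 8.83% of all genes, and without WT 2 it called *Nrp2* alone and 4.58% of all genes, while limma called no member and 0.19% of all genes. *Flt1* was 0.42 ± 0.14 (limma, adjusted p = 0.14), and *Kdr* was 0.16 ± 0.23 (adjusted p = 0.74), with an interval of -0.39 to 0.70. The *Kdr* value was 0.43 without *Mgp*-KO 2 (adjusted p = 0.097), 0.0089 without *Mgp*-KO 3 (0.99), 0.03 without *Mgp*-KO 1 (0.96) and 0.06 without WT 3 (0.93).

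Within replicates 4 and 5, with 2 libraries a group, limma called none of the 9 members and 0% of all genes, and no member had an unadjusted p under 0.05 by that tool. DESeq2 called none of them and 0.367% of all genes, with unadjusted p of 0.032 for *Kdr* and 0.044 for *Flt1*. EdgeR called none and 0% of all genes, with 0.049 for *Flt4*. *Kdr*, *Flt1*, *Flt4* and *Nrp1* had groups that did not overlap, all above WT, against 41.6% of all tested genes in either direction. The fitted differences were 0.85 ± 0.42 for *Kdr*, 0.95 ± 0.51 for *Flt1*, 0.86 ± 0.37 for *Flt4* and 0.40 ± 0.42 for *Nrp2*. The *Vegfa* difference was -0.15 ± 0.60 with an interval from -1.58 to 1.28. *Mgp* reads were present in both groups of this set.

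The difference of the genotype effect between the sets was tested as an interaction. None of the 9 members passed, and limma called 0.00729% of all genes. *Nrp2* had the smallest p, with a difference of 1.48 ± 0.51 between its effect in replicates 4 and 5 and that in replicates 1 to 3 (adjusted p = 0.45). When *Mgp*-KO 5 was left out, which left *Mgp*-KO 4 alone in its arm, *Nrp2* (1.96, adjusted p = 0.038), *Vegfa* (-1.53, adjusted p = 0.030) and *Vegfb* (-1.10, adjusted p = 0.042) passed by limma, as did 11.8% of all genes. That fit assumes that the lone library varies like the other groups. When *Mgp*-KO 4 was left out instead, the *Vegfa* and *Vegfb* differences were 0.13 and 0.39.

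**Figure D3:**
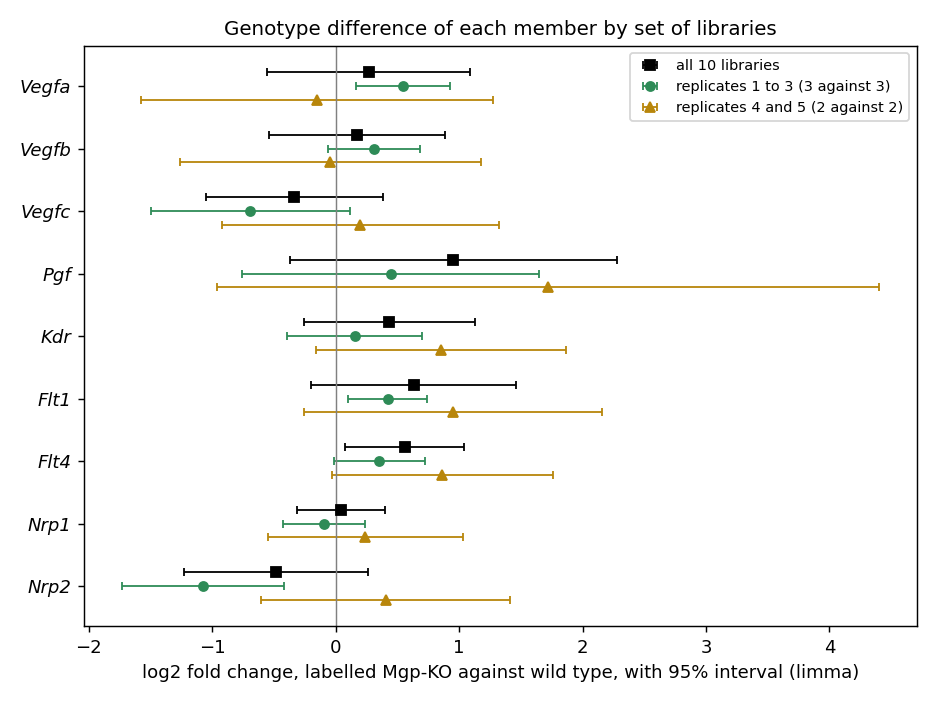
Log2 fold changes of the KO-labelled libraries against WT for each member, with 95% intervals from limma, over all 10 libraries (squares), within replicates 1 to 3 (circles) and within replicates 4 and 5 (triangles). *Nrp2* is at -1.07 in replicates 1 to 3 and at 0.40 in replicates 4 and 5, and the intervals within replicates 4 and 5 are the widest.

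Several members differed between the sets of replicates. In replicates 4 and 5, *Flt1* was higher by 1.04 ± 0.23 (limma, adjusted p = 0.0049) and *Kdr* by 0.74 ± 0.23 (adjusted p = 0.025), and *Vegfb* was lower, at -0.71 ± 0.25 (adjusted p = 0.045). *Vegfa* was at -0.78 ± 0.30 (adjusted p = 0.059). So 3 of the 9 members were called where 38.2% of all tested genes were, and none of the 9 had sets that did not overlap, against 25.2% of all genes. *Flt1* stayed past the threshold whichever library was left out. *Kdr* did not without WT 3 (adjusted p = 0.0501) or without *Mgp*-KO 4 (0.054), and *Vegfb* did not when any of 8 libraries was left out (adjusted p of 0.057 to 0.093), all but *Mgp*-KO 2 and 5. *Vegfa* passed without WT 5 (0.037) or *Mgp*-KO 5 (0.024), and *Flt4* without *Mgp*-KO 2 (0.045) or *Mgp*-KO 4 (0.021). Depth (9253793 to 13281873 against 19616366 to 22252260 reads) and the share of mitochondrial ribosomal RNA (6.50 to 16.7% against 0.771 to 1.72%) differed between the same sets, and their part in these differences was not tested. The log2 ratio of *Vegfa* to *Flt1* was 1.40 to 1.72 in replicates 1 to 3 and -2.10 to 1.01 in replicates 4 and 5, so that the sets were apart in this ratio, and the log2 ratio of *Flt4* to *Kdr* was -4.11 to -3.51 against -5.16 to -4.91. How often other gene pairs were apart in this way was not computed, so that these ratios have no share to be set beside.

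The endothelial receptors were also set against 20 blood endothelial markers, none of which is a member. These markers had a fitted difference above 0 in 19 of 20 genes over all libraries, with a median of 0.46, although none passed the threshold by limma. With the set in the model DESeq2 called *Sox18*, an endothelial transcription factor, at 0.86, as 1 of the 20, beside 7.42% of all genes. Within replicates 1 to 3, beside 8.83% of all genes, it called *Sox18* at 0.47 and *Esam*, an endothelial adhesion molecule, at 0.59. These latter calls were lost without WT 2, at 0.52 and 0.59 (adjusted p = 0.11 and 0.13). *Pecam1*, which encodes CD31, was at 3009 ± 786 normalized counts in WT and 4032 ± 1222 in the KO-labelled libraries (SD, n = 5, log2 difference 0.41 ± 0.23, limma adjusted p = 0.58). *Cdh5*, which encodes VE-cadherin, was at 5670 ± 925 and 7125 ± 1518 (0.32 ± 0.21, adjusted p = 0.63). The median difference of the list was 0.20 in replicates 1 to 3, and in replicates 4 and 5, which include *Mgp*-KO 4, it was 0.90. Relative to the mean log2 level of these markers in the same library, *Kdr* differed by -0.02, *Flt1* by 0.18 and *Flt4* by 0.11 between the group means. The mean of the markers was itself higher by 0.45, so that the *Kdr* difference between the groups was about that of the marker list, and the *Flt4* ratio overlapped between the groups, at -2.40 to -1.44 in WT and -2.48 to -1.16 in the KO-labelled libraries. The part of the high endothelial and red blood cell sums of *Mgp*-KO 4 in the receptor values was not tested. *Nrp2* relative to the same mean was 1.91, 1.83, 2.20, 1.26 and 1.81 in WT 1 to 5 and 0.997, 0.14, 1.01, 1.01 and 1.18 in the KO-labelled libraries. On this log2 ratio all KO-labelled libraries, also *Mgp*-KO 4, were below all WT libraries, as held for 4.17% of all tested genes on the same ratio (4.27% were apart in either direction). No test was run on it, and the level of *Nrp2* itself overlapped between the groups. *Nrp1* on this ratio differed by -0.41, with groups that overlapped. The log2 ratio of *Nrp1* to *Nrp2* was 0.93, 1.81 and 1.04 in *Mgp*-KO 1 to 3 against -0.03 to 0.69 in WT, but -0.05 and 0.81 in *Mgp*-KO 4 and 5.

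**Figure D4:**
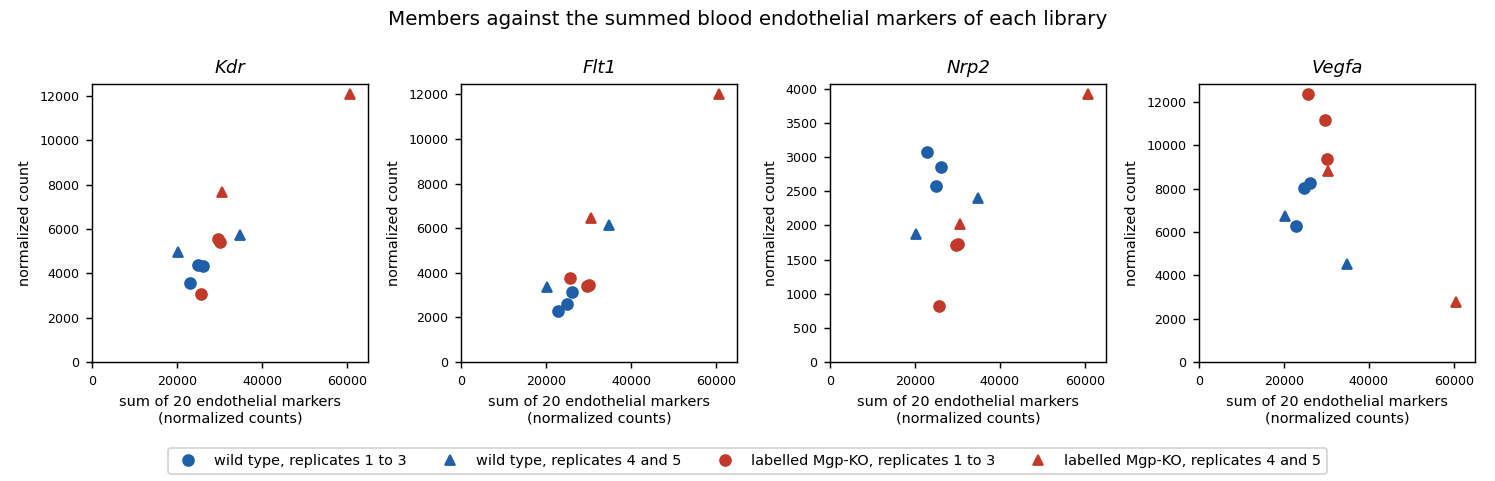
Normalized counts of *Kdr*, *Flt1*, *Nrp2* and *Vegfa* against the summed normalized counts of 20 blood endothelial markers, 1 point per library. *Mgp*-KO 4 stands at 60626 on the horizontal axis of every panel, with *Kdr* and *Flt1* at their highest and *Vegfa* at its lowest.

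Genes downstream of the receptors were taken from a list of 31 tested genes of VEGF signal transduction. None passed the threshold in the fits of all libraries or within replicates 1 to 3 by limma or DESeq2, and 15 of 31 had a difference above 0 over all libraries, with a median of -0.05. *Plcg1*, the phospholipase that VEGFR2 engages, was at 1563 ± 193 in WT and 1972 ± 347 in the KO-labelled libraries (0.33 ± 0.18, limma adjusted p = 0.57). *Cdc42*, a small GTPase of cell migration, was at 3366 ± 205 and 2711 ± 369 (-0.32 ± 0.16, adjusted p = 0.53). Between the sets, 6 of the 31 were called as higher and 6 as lower in replicates 4 and 5, where 38.2% of all genes were called in either direction.

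Of 14 tested genes known to be induced by VEGF in endothelium, none passed over all libraries by limma, and 7 had a difference above 0, with a median of 0.03. *Igfbp3*, which binds insulin-like growth factors, was at 541 ± 128 normalized counts in WT and 1993 ± 1254 in the KO-labelled libraries (1.74 ± 0.32, limma adjusted p = 0.058). With the set in the model it rose (limma, adjusted p = 0.018), and within replicates 1 to 3 it rose by 2.08 (adjusted p = 0.033), but without WT 2 neither passed by limma, at 1.67 and 2.03 (adjusted p = 0.058 and 0.15). DESeq2 called it in both fits also without WT 2, at 1.73 and 2.20. *Apln*, the ligand apelin of endothelial tip cells, was at 215 ± 38.0 and 53.1 ± 26.8 (-2.32 ± 0.54, adjusted p = 0.12), and it fell with the set in the model (adjusted p = 0.040, and -2.24 with 0.10 without WT 2). DESeq2 called it within replicates 1 to 3 at -2.30 (adjusted p = 0.049), but not without WT 2 (-2.28, 0.24). *Dll4*, the Notch ligand of tip cells, was at 444 ± 133 and 936 ± 368 (1.05 ± 0.31, limma adjusted p = 0.23) and was called by DESeq2 within replicates 1 to 3, at 0.85 (adjusted p = 0.0098, and 0.91 with 0.057 without WT 2). *Angpt2*, an antagonist of the Tie2 receptor, was at 46.6 ± 8.28 and 67.2 ± 14.3 (0.52 ± 0.23, limma adjusted p = 0.48). DESeq2 called *Igfbp3*, *Dll4* and *Apln* over all libraries as well, so that the genes past its threshold were of both signs. Without WT 2 the *Dll4* call was lost there, at 1.12 (adjusted p = 0.10), and *Igfbp3* and *Apln* remained. With the set in the model DESeq2 called *Dll4* at 1.07, and still did so without WT 2, at 1.12.

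Among 10 tested inhibitors and extracellular modulators of VEGF, none passed over all libraries by limma. *Svep1*, an extracellular protein needed for lymphatic vessels, was at 2727 ± 1311 and 1313 ± 494 (-0.99 ± 0.40, limma adjusted p = 0.41), and it fell with the set in the model (adjusted p = 0.010) and within replicates 1 to 3 (-1.13, adjusted p = 0.0061). Without WT 2 both passed (adjusted p = 0.037 and 0.045). *Pcsk5*, a proprotein convertase able to process VEGF-C, rose within replicates 1 to 3 by 2.49 (limma, adjusted p = 0.0085, and 2.40 with 0.063 without WT 2), with 245 ± 56.9 in WT and 1053 ± 850 in the KO-labelled libraries over all replicates. Its difference within replicates 4 and 5 was 0.06, and DESeq2 called it over all libraries too, at 2.11 (adjusted p = 0.016, and 2.10 with 0.058 without WT 2). That tool also called it within replicates 1 to 3, at 2.53, and with the set in the model, at 1.67. Those calls held without WT 2, at 2.44 and 1.45. DESeq2 also called *Htra1*, a secreted serine protease, at -0.63 with the set in the model, and *Gpc1*, a cell surface heparan sulfate proteoglycan, at 1.01 within replicates 1 to 3. Without WT 2 both calls were lost, at -0.67 and 0.84 (adjusted p = 0.091 and 0.079). Between the sets 9 of these 10 genes were lower in replicates 4 and 5 and none was higher, among them *Thbs1* (-1.10), *Col18a1* (-1.12) and *Hspg2* (-0.88), where 38.2% of all genes were called in either direction.

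Of 12 genes of oxygen sensing and *Vegfa* regulation, none passed by limma over all libraries or within replicates 1 to 3, and 4 had a difference above 0, with a median of -0.15. *Hif3a*, which encodes a hypoxia-inducible factor subunit, was at 6.76 ± 3.17 and 49.5 ± 63.9 (2.16 ± 0.60, limma adjusted p = 0.21) and was called by DESeq2 within replicates 1 to 3, at 3.59, also without WT 2 (adjusted p = 0.0070). *Arnt*, the shared partner of these factors, was at 962 ± 45.8 and 1250 ± 366 (0.33 ± 0.20, limma adjusted p = 0.60). The WT mean of *Hif3a* lay just above the floor of 3 reads, 2.15 to 5.19 normalized counts, so that its difference rests on few reads. Of 11 tested semaphorin and plexin partners of the neuropilins, none passed by limma either. *Sema3c* was at 72.1 ± 27.9 and 47.8 ± 37.4 (-0.84 ± 0.48, adjusted p = 0.59), and DESeq2 called it within replicates 1 to 3, at -1.28, also without WT 2 (adjusted p = 0.032).

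Markers of cell types that the tissue could hold were looked at last. The brown adipocyte markers *Ucp1*, the uncoupling protein of thermogenesis, *Adrb3*, the adrenergic receptor that activates brown fat, and *Elovl3*, a fatty acid elongase, fell within replicates 1 to 3, with log2 fold changes of -2.76, -3.32 and -3.05 (limma, adjusted p = 0.045, 0.0014 and 0.031). They were the 3 of 14 tested markers that passed there, beside 3.54% of all genes, and 2 of the 14 had a difference above 0, with a median of -0.41. DESeq2 called these 3, *Dio2* (-2.76), the deiodinase that activates thyroid hormone, and *Prdm16* (-0.94), a regulator of brown fat identity. Without WT 2, where limma called 26 genes in place of 486, only *Adrb3* passed by limma (-3.33, adjusted p = 0.015), while *Ucp1* was at -2.77 (0.17) and *Elovl3* at -2.94 (0.14). DESeq2 lost only *Dio2* there (-2.80, adjusted p = 0.20). Over all libraries none of the 14 passed by limma and 2 had a difference above 0, but DESeq2 called *Ucp1*, *Adrb3* and *Elovl3* as lower, also without WT 2. With the set in the model limma and DESeq2 each called *Ucp1*, *Adrb3*, *Elovl3* and *Dio2* as lower. Without WT 2 limma lost *Adrb3* (-2.25, adjusted p = 0.056) and *Dio2* (-3.37, 0.066), whereas DESeq2 called all 4. No gene passed over all libraries by limma among 6 lymphatic, 11 mural, 11 macrophage, 11 adipose progenitor, 10 skeletal muscle and 8 red blood cell and platelet markers. The median differences of these lists were -0.09, 0.13, 0.02, -0.46, 0.44 and 0.43. The muscle median was 2.71 by DESeq2 and -0.13 by limma with the set term without WT 2, and the red blood cell and platelet median was 0.89 by DESeq2. Within replicates 1 to 3, beside 8.83% of all genes, DESeq2 called *Thy1* (-1.32) of the lymphatic list, *Cspg4* (-1.31) of the mural list, and *Lum* (-1.01) and *Col1a1* (-1.21), both matrix genes, of the progenitor list as lower. It called *Mertk* (1.33) and *Cd163* (0.78), a pair of macrophage receptors, as higher. In that fit 3 of 11 macrophage markers were above 0, with a median of -0.07. For the mural markers it was 7 of 11, with a median of 0.07. With the set in the model, beside 7.42% of all genes, DESeq2 called *Mertk* (1.11), *Dcn* (0.66) of the progenitor list and *Itga2b* (0.93), a platelet integrin, as higher. There 4 of 11 progenitor markers were above 0, with a median of -0.46. Without WT 2 the calls of *Thy1* (-1.36), *Cd163* (0.71), *Mertk* (1.41 and 1.12) and *Dcn* (0.65) were lost, with adjusted p of 0.071 to 0.27, and the other 4 were not. The sum of the progenitor markers was 17001 to 49139 in WT and 12150 to 28518 in the KO-labelled libraries, with *Mgp*-KO 2 lowest as it was for *Nrp2*, and its part in that result was not tested.

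The genes most like each member over the 10 libraries, after the mean of each set was subtracted from the log2 levels, were taken as the 3 with the highest Pearson r of all tested genes. They are a description with no test, since the best of many genes is always high and all points share their libraries. *Vegfa* was most like *Repin1* (r = 0.98), *Eif2a* (0.97) and *Vamp1* (0.96), and *Vegfb* like *Fndc10* (0.98), *Tmem37* (0.97) and *Tmem45b* (0.97). *Kdr* was most like *Efnb2* (0.97), which encodes the arterial ligand ephrin B2, *Fam171a2* (0.97) and *Lnx2* (0.97). *Flt1* was most like *Smtn* (0.99), *Unc45b* (0.99) and *Fli1* (0.99), an endothelial ETS factor. *Flt4* was most like *Fmnl1* (0.99), *Afap1l1* (0.99) and *Sdc3* (0.98), and *Nrp2* like *4930402H24Rik* (0.98), *Entpd6* (0.98) and *Foxm1* (0.97), a factor of dividing cells. The genes for *Nrp1* were *Zfp599* (0.98), *Dysf* (0.93) and *Itga6* (0.92). The low ligands *Vegfc* and *Pgf*, whose values rest on few reads, were most like *Plxna3* (0.98), *Ints7* (0.98) and *AW046200* (0.95), and like *Dnajb5* (0.98), *Kmt2e* (0.97) and *Tnip2* (0.96). Without *Mgp*-KO 4 these values ranged from 0.900 to 0.995. With the set means left in they ranged from 0.15 (*Kdr* and *Fam171a2*) to 0.99, and were also low for *Vegfc* and *Plxna3* (0.35), *Flt1* and *Smtn* (0.38) and *Flt4* and *Afap1l1* (0.41).

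Among the members themselves, measured the same way, the receptors had r of 0.72 between *Kdr* and *Flt1*, 0.90 between *Kdr* and *Flt4* and 0.89 between *Flt1* and *Flt4*, and 0.42, 0.80 and 0.78 without *Mgp*-KO 4. With the set means left in, the same values were 0.86, 0.25 and 0.17, so that the pairs with *Flt4* were high only after the set means were subtracted. *Vegfa* and *Vegfb* had an r of 0.75, 0.47 without *Mgp*-KO 4 and 0.85 with the set means left in. *Vegfa* and *Nrp2* varied in opposite directions, with r of -0.78, -0.75 without *Mgp*-KO 4 and -0.76 with the set means left in.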

How the data were processed

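Libraries from 10 iBAT samples were read as single ends of 50 bases. The authors aligned them to mm10 with STAR, counted reads that overlap a single gene (GeneCounts mode) and divided the counts by DESeq2 size factors. The deposited values are thus a signal per gene in normalized counts. Which annotation and strand setting the counting used is not given in the sources used here. All values (100%) were whole multiples of 1 read (tolerance 0.01), so whole reads were recovered. A floor of 3 reads equals 2.15 to 5.19 normalized counts and covers counting error alone, as PCR copies could not be removed by molecular identifiers.

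Under R 4.3.3, the moderated linear model of limma 3.58.1 with a mean-variance trend tested log2(normalized count + 1) of 13714 genes with a mean of at least 10, with Benjamini-Hochberg adjustment over all of them and a threshold of 0.05. Fold changes on this scale understate those of low genes. EdgeR 4.0.16 and DESeq2 1.42.0 on recovered reads were alternatives, beside other pseudocounts (0.5 and 10), filters, scalings, a set term, the replicate number as a block and each library left out. The fits were tested on simulated data. Levels per kilobase used exon lengths of GENCODE for GRCm38, in which all 9 members were found. All 9 also matched a promoter in RefSeq.

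The members and gene lists were chosen with earlier results of these data known. Genes were named if they were members, *Mgp*, *Pecam1* or *Cdh5*, if they passed the threshold in the fit described for a list or, where none did, were taken from the 4 smallest p-values of it, or if they were among the 3 most like a member. *Xist*, *Gm29083*, *Gm37121*, and *Thbs1*, *Col18a1* and *Hspg2* as examples, were named after their values were seen.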

Additional observations from a re-analysis of the deposited data

Results flagged for a closer look

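Of 46 groups of 5 libraries looked at for 1 value far from the others, 6 held one. Chance gives about 1 in 20 for independent groups, but these share genes, libraries and a marker mean, so that the rate is no benchmark here. The library labelled *Mgp*-KO 4 gave 4 of the 6. *Vegfa* was 2792 and *Vegfb* 1073 normalized counts there, both far below the rest of the group. The mean log2 level of blood endothelial markers was 10.93 in the same library, far above the rest, and log2 *Nrp1* minus that mean was 0.96, far below. Log2 *Kdr* minus the mean of these markers was 3.21 in WT 5, above the rest of its group. Log2 *Nrp2* minus the same mean was 0.14 in *Mgp*-KO 2, below the rest of its group.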

How the results depend on the processing

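Over all libraries no member passed by limma, and the count was 1 (*Flt4*) by DESeq2 with a set term, and 0 without WT 2. Within replicates 1 to 3 DESeq2 called 2 where limma called none, and 1 (*Nrp2*) without WT 2, both settings without WT 2 being chosen after seeing the data. Limma's counts there with 1 library left out ranged from 0 to 1. For the interaction they ranged from 0 to 3, and for the difference between sets from 1 to 4. The replicate block, with which limma called 270 genes and edgeR 222 beside 9 for limma without it, called 0 members. Same-numbered libraries had deviations correlated at 0.390 on average, but 0.0559 in the second pair and -0.02 on average once set means were subtracted, so the numbers were not taken to pair the samples. Genes called over all libraries ranged from 1 to 1152 under the other settings. With 1 library left out they ranged from 0 to 93 by limma, beside 9 with all libraries.

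Directions changed in the following results, none of which was called except the interaction of *Vegfa* and *Vegfb* without *Mgp*-KO 5 (limma, adjusted p = 0.030 and 0.042). Without *Mgp*-KO 4 and 5, *Kdr* was -0.000742 and *Nrp1* -0.035. *Nrp1* was also -0.0067 by DESeq2 and -0.0066 by limma with a set term, both without *Mgp*-KO 4, settings chosen after seeing the data. Within replicates 4 and 5, *Vegfa* was 0.050 by DESeq2 and 0.060 by edgeR, and *Vegfb* 0.15 and 0.16. With 1 library left out, *Nrp1* ranged from -0.0010 to 0.11 over all libraries, from -0.18 to 0.016 within replicates 1 to 3 and from -0.037 to 0.086 between sets. *Pgf* ranged from -0.066 to 0.84 within replicates 1 to 3 and from -0.57 to 0.59 between sets, and *Nrp2* from -0.028 to 0.57 between sets. In the interaction *Vegfa* ranged from -1.53 to 0.13 and *Vegfb* from -1.10 to 0.39. The causes were not tested. *Pgf* and *Vegfc* are limited by depth, with a floor of up to 5.19 normalized counts.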
